A study of Homo sapiens with 6 samples.

Results

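Translation initiation factors are the proteins that place a ribosome, with an initiator tRNA, on the start codon of an mRNA. Their transcripts were followed here in 6 RNA sequencing libraries of OVCA433, a cultured human ovarian carcinoma line. The members were the rows of the deposited count table whose name began with EIF and a digit between 1 and 6, without the genes of EIF4A3 (a splicing-related helicase), of the EIF2AK kinases and of the EIF4EBP repressors. This gave 46 of the 11957 rows of the table, and 8 EIF rows were left out by the rule. By role, 4 belonged to start codon selection, 4 to eIF2, 5 to eIF2B, 14 to eIF3, 5 to the cap-binding complex eIF4F, 6 to relatives and cofactors of eIF4F, 5 to subunit joining and the factors named after it, 2 to alternative delivery of initiator tRNA, and EIF1AD to none of these.

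The study set 3 libraries with the genotype label U2AF2 SI against 3 with the genotype label U2AF2 SINC, both of the same line, with no treatment or time named. Its title speaks of U2AF2 deficiency, and U2AF2 encodes the larger subunit of a splicing factor that reads the polypyrimidine tract before a 3′ splice site. The labels spell out neither abbreviation, nor whether each of the 3 libraries of a label had a culture of its own, and p-values therefore cover the spread among these libraries alone. Levels below are in CPM, the deposited counts scaled to 1 common library total after correction by the trimmed mean of M-values (TMM). Levels of different genes are set against each other only as ratios within a library, given as descriptions. Fold changes are libraries labelled U2AF2 SI over libraries labelled U2AF2 SINC on a log2 scale with a standard error (SE), and rows were called at an adjusted p under 0.05.

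U2AF2 itself had 285, 345 and 373 CPM in the libraries labelled U2AF2 SI, against 252, 284 and 205 CPM in the libraries labelled U2AF2 SINC. The libraries labelled U2AF2 SI were thus all the higher ones, by 0.44 ± 0.19 on the log2 scale (edgeR, Benjamini-Hochberg adjusted p = 0.653; exact permutation p = 0.1, 2-sided, the smallest that 3 against 3 allows). Library 1 of U2AF2 SI and library 2 of U2AF2 SINC nearly met, and 7.36% of all rows had every library labelled U2AF2 SI higher. The sample descriptions assign the table's columns with the letter N to U2AF2 SI and those with the letter S to U2AF2 SINC. The letter S begins both SI and SINC, and N stands in SINC but not in SI. If U2AF2 SI stands for a knockdown, the transcript goes against the label, whether a label or a column is exchanged cannot be told from these data, and every direction below is one between libraries as labelled. Library totals were 43333966 to 48976810 counts. Of the epithelial markers KRT8 and KRT18 had rows, at 32.9 to 409 CPM, the other 5 of 7 had none, no leukocyte or endothelial marker had a row, and the fibroblast collagens COL1A1 and COL1A2 lay at 0.667 to 3.24 CPM. Rows with fewer counts than the table holds are outside what was analysed here.

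In cells, eIF2 carries the initiator methionyl tRNA and GTP to the small ribosomal subunit, and eIF2B recharges eIF2 with GTP after each round. eIF3 is the large scaffold that holds the small subunit ready, and eIF4F, made of the cap-binding protein eIF4E, the scaffold eIF4G and the helicase eIF4A, brings the capped end of the mRNA to it. eIF1, eIF1A and eIF5 control the recognition of the start codon during scanning, and eIF5B then joins the large subunit. Phosphorylation of eIF2 and sequestration of eIF4E are the best known switches of the pathway, and neither is visible in transcript levels.

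No initiation factor transcript differed between the labels after adjustment over all rows. Of the 46 members 0 were called by edgeR and 0 by limma-voom, where edgeR called 1 row of the whole table (0.00836%). DESeq2 called 61 rows of the table and 0 members, but gave only 23 of the members an adjusted p. Without its independent filtering, a fit added after seeing the data, all 46 had an adjusted p and 0 were called. The lowest adjusted p of a member was 0.653 (edgeR, Benjamini-Hochberg). At an unadjusted p under 0.05 edgeR listed 2 members, EIF3A and EIF4G1, against 881 rows of the table (7.37%). Both were higher in the libraries labelled U2AF2 SI, as were 3.15% of all rows, and 0 members were lower, as were 4.22% of all rows. These shares lie near or under those of the table.

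The fold changes of the members were small and lay on both sides of 0. There were 25 members above 0 and 21 below, with a median of 0.02 and a range from −0.33 (EIF6) to 0.59 (EIF2S3B), while 54.3% of all rows were above 0 and their median was 0.04. Summed over the members, the libraries labelled U2AF2 SI held 11281 ± 722 CPM and those labelled U2AF2 SINC 11434 ± 472 CPM (SD, n = 3 each). In bulk RNA, a change in the number of cells of a kind and a change in RNA per cell cannot be told apart. For 6 of the 46 members the labels did not overlap, which is near the share over all rows (13.0%). All libraries labelled U2AF2 SI were the higher ones for EIF2S3, EIF2S3B, EIF3A and EIF4G1 (7.36% of all rows), and the lower ones for EIF2B3 and EIF2B5 (5.68% of all rows).

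**Figure D1:**
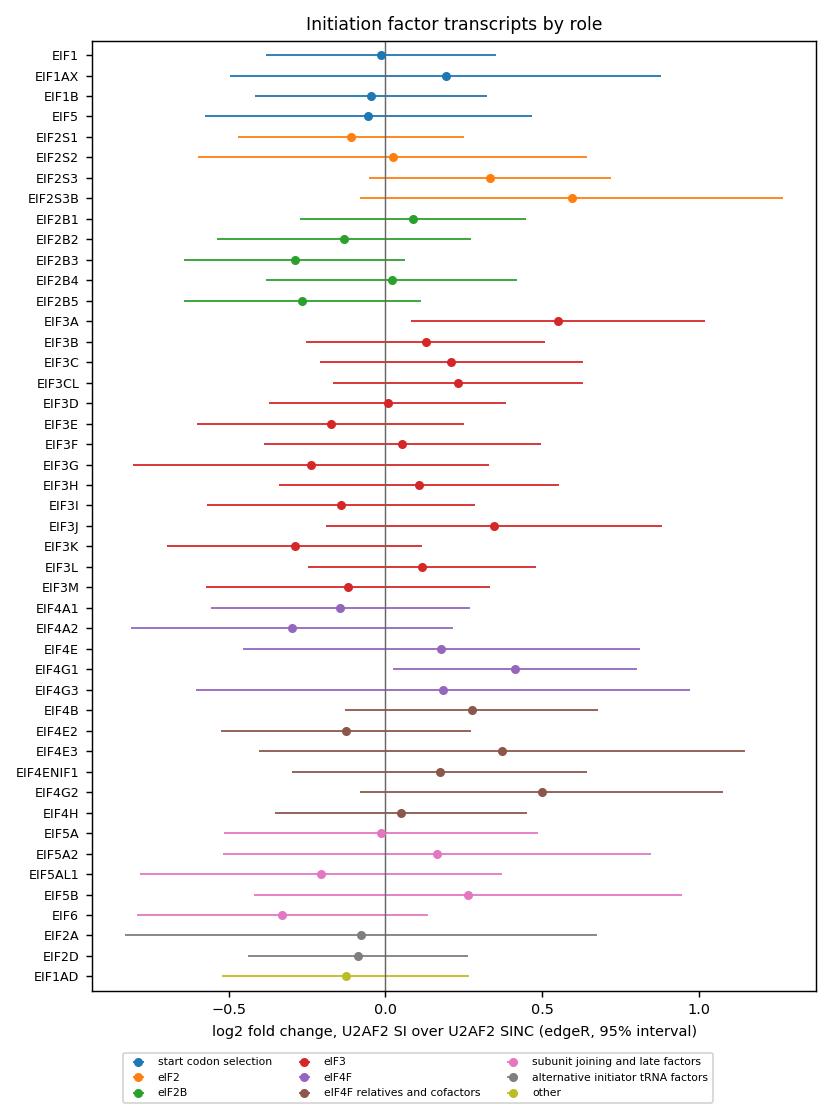
Log2 fold change (x axis, libraries labelled U2AF2 SI over libraries labelled U2AF2 SINC) of the 46 members (y axis, ordered and coloured by role); points are edgeR estimates and lines their 95% intervals. The intervals of EIF3A and EIF4G1 lie above 0, those of the other members cross it, and no complex has all of its points far from 0.

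eIF2 has an alpha subunit (EIF2S1, the one whose phosphorylation halts initiation), a beta subunit (EIF2S2) and a gamma subunit that binds GTP and the tRNA (EIF2S3). EIF2S3 had 369, 306 and 311 CPM in the libraries labelled U2AF2 SI, against 243, 247 and 293 CPM in the libraries labelled U2AF2 SINC. All of the U2AF2 SI libraries were higher, with a fold change of 0.33 ± 0.18 and a 95% interval from −0.05 to 0.72 (edgeR, Benjamini-Hochberg adjusted p = 0.692). EIF2S1 had 224, 213 and 202 CPM in the libraries labelled U2AF2 SI, against 222, 253 and 217 CPM in the libraries labelled U2AF2 SINC. Its libraries overlapped and its fold change was −0.11 ± 0.16, with an interval from −0.47 to 0.25. EIF2S2 had 108, 72.7 and 74.7 CPM in the libraries labelled U2AF2 SI, against 55.3, 71.3 and 125 CPM in the libraries labelled U2AF2 SINC, so that the highest and the lowest value both stood under U2AF2 SINC and the fold change was 0.02 ± 0.28. The ratio of EIF2S3 to EIF2S1 counts was 1.64, 1.43 and 1.54 in the libraries labelled U2AF2 SI, against 1.09, 0.976 and 1.35 in the libraries labelled U2AF2 SINC. That ratio was chosen with the values in view and is a description without a test.

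EIF2S3B is a second gamma subunit gene on chromosome 12, beside EIF2S3 on chromosome X. Over the 1419 bases of their longest open reading frames in GENCODE release 29 the pair differ at 25 positions, an identity of 98.2%, so reads of one can be assigned to the other and the EIF2S3B row is uncertain. The following windows, bases 298 to 357 of each open reading frame, are shown because they hold 6 of those differences, written in capitals.
EIF2S3: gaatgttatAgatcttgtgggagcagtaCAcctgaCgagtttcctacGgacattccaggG
EIF2S3B: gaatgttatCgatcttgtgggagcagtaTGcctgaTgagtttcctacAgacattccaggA
EIF2S3B was counted at 9.22, 5.90 and 5.45 CPM in the libraries labelled U2AF2 SI, against 3.92, 4.94 and 4.76 CPM in the libraries labelled U2AF2 SINC. Its libraries did not overlap, library 1 of U2AF2 SI stood highest, and the fold change was 0.59 ± 0.31 (edgeR, Benjamini-Hochberg adjusted p = 0.687), or 0.31 without that library. EIF2S3 held 40.0 to 57.2 times the counts of EIF2S3B in the libraries labelled U2AF2 SI and 49.9 to 61.8 times in the libraries labelled U2AF2 SINC, and the ranges of this ratio overlapped. With both rows summed, no member was called either.

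eIF2B is the exchange factor of eIF2, with catalytic subunits epsilon (EIF2B5) and gamma (EIF2B3) and regulatory subunits alpha, beta and delta (EIF2B1, EIF2B2 and EIF2B4). The catalytic pair was lower in every library labelled U2AF2 SI, by an amount within the error of the test. EIF2B3 had 66.3, 63.2 and 60.1 CPM in the libraries labelled U2AF2 SI, against 70.7, 82.0 and 79.1 CPM in the libraries labelled U2AF2 SINC. EIF2B5 had 72.5, 81.5 and 84.7 CPM in the libraries labelled U2AF2 SI, against 111, 90.4 and 85.3 CPM in the libraries labelled U2AF2 SINC. Neither overlapped between the labels, though for EIF2B5 library 3 of U2AF2 SI and library 3 of U2AF2 SINC nearly met. The fold change of EIF2B3 was −0.29 ± 0.16 with an interval from −0.64 to 0.06 (edgeR, Benjamini-Hochberg adjusted p = 0.696), and that of EIF2B5 was −0.26 ± 0.17 with an interval from −0.64 to 0.11 (edgeR, Benjamini-Hochberg adjusted p = 0.720). Without library 1 of U2AF2 SINC the fold change of EIF2B5 was −0.14.

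The regulatory subunits of eIF2B overlapped between the labels. EIF2B1 had 69.3, 67.7 and 72.4 CPM in the libraries labelled U2AF2 SI, against 61.7, 61.1 and 74.1 CPM in the libraries labelled U2AF2 SINC, a fold change of 0.09 ± 0.16. EIF2B2 had 99.2, 120 and 122 CPM in the libraries labelled U2AF2 SI, against 135, 139 and 100.5 CPM in the libraries labelled U2AF2 SINC, a fold change of −0.13 ± 0.18. EIF2B4 had 76.7, 108 and 97.8 CPM in the libraries labelled U2AF2 SI, against 97.5, 98.7 and 82.4 CPM in the libraries labelled U2AF2 SINC, a fold change of 0.02 ± 0.18. In both EIF2B2 and EIF2B4, the lowest libraries of the 2 labels were library 1 of U2AF2 SI and library 3 of U2AF2 SINC. Over the 5 subunits the median fold change was −0.13, with 2 above 0 and 3 below.

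The eIF3 scaffold had 14 rows, since EIF3C is present as a second gene, EIF3CL, and the counts of the pair cannot be told apart. Of the 14 rows 9 were above 0, EIF3C and EIF3CL among them, and 5 below. The median was 0.08, and 1 row did not overlap between the labels. That one was EIF3A, the largest subunit and the core of the scaffold. It had 71.9, 59.3 and 63.8 CPM in the libraries labelled U2AF2 SI, against 48.8, 31.4 and 53.1 CPM in the libraries labelled U2AF2 SINC. Library 2 of U2AF2 SINC stood lowest, and the fold change was 0.55 ± 0.21 with an interval from 0.08 to 1.02 (edgeR, Benjamini-Hochberg adjusted p = 0.653). Without that library it was 0.35, and once a within-library trend with the length and GC content of transcripts had been removed it was 0.37. In GENCODE an exon of EIF3A overlaps the coding gene NANOS1 on the opposite strand, and the labels do not say whether counting used strand.

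EIF3B, which pairs with EIF3A in the core, had 360, 461 and 394 CPM in the libraries labelled U2AF2 SI, against 381, 365 and 366 CPM in the libraries labelled U2AF2 SINC. Its labels overlapped, because library 1 of U2AF2 SI was the lowest of all 6, and the fold change was 0.13 ± 0.17. EIF3J, a loosely bound subunit near the mRNA channel, had 53.9, 38.0 and 42.8 CPM in the libraries labelled U2AF2 SI, against 26.6, 30.9 and 48.5 CPM in the libraries labelled U2AF2 SINC. Its fold change was 0.35 ± 0.24, and library 3 of U2AF2 SINC overlapped with the other label. It was 0.18 without library 1 of U2AF2 SI, 0.18 without library 1 of U2AF2 SINC and 0.65 without library 3 of U2AF2 SINC. EIF3K, a small peripheral subunit, had 255, 259 and 320 CPM in the libraries labelled U2AF2 SI, against 379, 352 and 288 CPM in the libraries labelled U2AF2 SINC. It was the lowest of the eIF3 rows by fold change, at −0.29 ± 0.19 (edgeR, Benjamini-Hochberg adjusted p = 0.716), with library 3 of U2AF2 SI inside the other label. With the length and GC trend removed EIF3K was at −0.06, and the lowest eIF3 row was then EIF3M at −0.27.

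EIF3C and EIF3CL, both on chromosome 16, are identical over 2742 aligned bases of their longest open reading frames, so their counts cannot be assigned to one gene. EIF3C had 306, 463 and 384 CPM in the libraries labelled U2AF2 SI, against 320, 328 and 349 CPM in the libraries labelled U2AF2 SINC. EIF3CL had 291, 410 and 368 CPM in the libraries labelled U2AF2 SI, against 305, 303 and 303 CPM in the libraries labelled U2AF2 SINC. The ratio of the pair stayed between 1.05 and 1.13 in the libraries labelled U2AF2 SI and between 1.05 and 1.15 in the libraries labelled U2AF2 SINC, and the fold changes were 0.21 ± 0.19 for EIF3C and 0.23 ± 0.18 for EIF3CL. The other 8 rows, EIF3D, EIF3E, EIF3F, EIF3G, EIF3H, EIF3I, EIF3L and EIF3M, all overlapped between the labels. Their fold changes ran from −0.24 (EIF3G) to 0.12 (EIF3L).

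**Figure D2:**
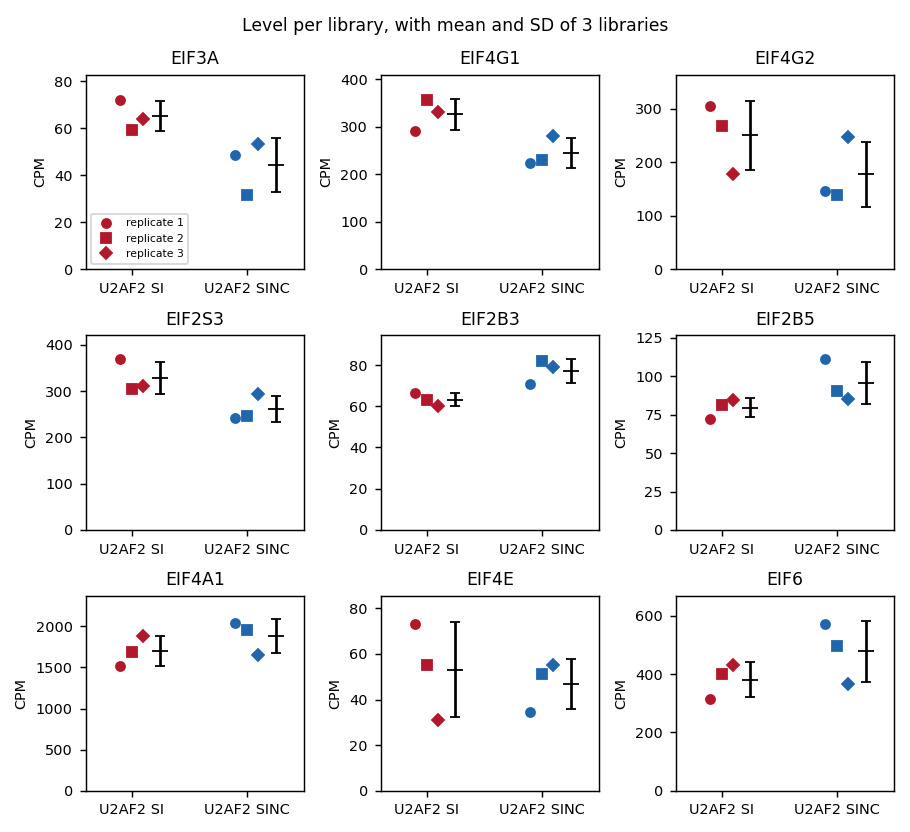
CPM (y axis, from 0) of 9 members in the libraries labelled U2AF2 SI (left, red) and U2AF2 SINC (right, blue); symbols give the replicate number and black bars the mean and SD of 3 libraries. EIF3A, EIF4G1 and EIF2S3 stand higher and EIF2B3 and EIF2B5 lower in every library labelled U2AF2 SI, and the other 4 panels overlap.

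In eIF4F, the scaffold and the helicases lay on different sides of 0. EIF4G1, the main eIF4G scaffold, had 290, 355 and 331 CPM in the libraries labelled U2AF2 SI, against 223, 230 and 280 CPM in the libraries labelled U2AF2 SINC. The labels did not overlap, and the fold change was 0.41 ± 0.18 with an interval from 0.02 to 0.80 (edgeR, Benjamini-Hochberg adjusted p = 0.653). It was 0.25 after the length and GC trend was removed. EIF4G3, the second scaffold gene, had 18.5, 10.8 and 12.3 CPM in the libraries labelled U2AF2 SI, against 15.8, 5.88 and 14.9 CPM in the libraries labelled U2AF2 SINC. Its labels overlapped, with a fold change of 0.18 ± 0.36.

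EIF4A1, the main eIF4A helicase gene, had 1523, 1691 and 1888 CPM in the libraries labelled U2AF2 SI, against 2036, 1953 and 1646 CPM in the libraries labelled U2AF2 SINC. EIF4A2, a second helicase gene with 76.9% identical bases over the open reading frame, had 433, 292 and 288 CPM in the libraries labelled U2AF2 SI, against 315, 522 and 410 CPM in the libraries labelled U2AF2 SINC. Both overlapped between the labels, with fold changes of −0.14 ± 0.19 for EIF4A1 and −0.30 ± 0.23 for EIF4A2. Leaving out 1 library put EIF4A2 between −0.53 (without library 1 of U2AF2 SI) and −0.10 (without library 2 of U2AF2 SINC). EIF4E, the protein that holds the cap, had 72.9, 55.1 and 31.2 CPM in the libraries labelled U2AF2 SI, against 34.4, 51.3 and 55.1 CPM in the libraries labelled U2AF2 SINC. The U2AF2 SI libraries held both its highest and its lowest value, and its fold change of 0.18 ± 0.29 turned to −0.14 without library 1 of U2AF2 SI. The ratio of EIF4G1 to EIF4A1 counts is a description chosen with the values in view. It was 0.190, 0.210 and 0.176 in the libraries labelled U2AF2 SI, against 0.110, 0.118 and 0.170 in the libraries labelled U2AF2 SINC, without overlap. The ratio of EIF4G1 to EIF4E was 3.97, 6.44 and 10.6 under U2AF2 SI and 6.49, 4.48 and 5.08 under U2AF2 SINC, with overlap. The ratios of EIF4A1 to EIF4A2 and, in eIF3, of EIF3A to EIF3B overlapped too.

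The median over the 5 eIF4F rows was 0.18, from 3 above 0 and 2 below. It was −0.06 with the length and GC trend removed, 0.37 with scaling by library size alone, and −0.09 without library 1 of U2AF2 SI, so its sign rested on the processing. Library size alone also moved the median of all rows, from 0.04 under TMM to 0.22.

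Among the relatives and cofactors of eIF4F, 5 of 6 rows were above 0, with a median of 0.22 (0.06 with the length and GC trend removed), and none was separated between the labels. EIF4G2, a scaffold that lacks the cap-binding protein's site and serves non-canonical initiation, had 305, 267 and 178 CPM in the libraries labelled U2AF2 SI, against 145, 139 and 247 CPM in the libraries labelled U2AF2 SINC. Library 3 of each label lay among the values of the other, and the fold change was 0.50 ± 0.26 with an interval from −0.08 to 1.08 (edgeR, Benjamini-Hochberg adjusted p = 0.692). It was 0.31 without library 1 of U2AF2 SI and 0.82 without library 3 of U2AF2 SINC. The helicase cofactors EIF4B and EIF4H, the cap-binding relatives EIF4E2 and EIF4E3 and the eIF4E transporter EIF4ENIF1 ran from −0.13 (EIF4E2) to 0.37 (EIF4E3).

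The factors of start codon selection lay close to 0. EIF1, which keeps the scanning complex open, had 578, 569 and 640 CPM in the libraries labelled U2AF2 SI, against 618, 598 and 589 CPM in the libraries labelled U2AF2 SINC. Its fold change was −0.01 ± 0.17 with an interval from −0.38 to 0.35, so that moderate differences in either direction lie inside it. EIF1AX had 72.3, 48.1 and 32.1 CPM in the libraries labelled U2AF2 SI, against 36.7, 32.8 and 63.9 CPM in the libraries labelled U2AF2 SINC. EIF5, the GTPase activator of eIF2, had 111, 78.1 and 69.1 CPM in the libraries labelled U2AF2 SI, against 69.8, 80.8 and 117 CPM in the libraries labelled U2AF2 SINC. In both genes library 1 of U2AF2 SI and library 3 of U2AF2 SINC were the highest of their label. The fold changes were 0.19 ± 0.31 for EIF1AX, which was −0.17 without library 1 of U2AF2 SI, and −0.05 ± 0.24 for EIF5, which was 0.19 without library 3 of U2AF2 SINC. EIF1B, a relative of EIF1, was at −0.05, and at 0.30 with the length and GC trend removed.

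EIF5B, the GTPase that joins the subunits, had 20.01, 13.8 and 21.1 CPM in the libraries labelled U2AF2 SI, against 18.8, 8.42 and 18.6 CPM in the libraries labelled U2AF2 SINC. Library 2 was the lowest of either label, and the fold change was 0.26 ± 0.31. EIF6, which keeps free large subunits apart from small ones, had 314, 399 and 430 CPM in the libraries labelled U2AF2 SI, against 573, 496 and 367 CPM in the libraries labelled U2AF2 SINC. It had the lowest fold change of all members, −0.33 ± 0.21 with an interval from −0.79 to 0.14 (edgeR, Benjamini-Hochberg adjusted p = 0.716), and its labels overlapped through library 3 of U2AF2 SINC. It was −0.04 with the length and GC trend removed and −0.18 without library 1 of U2AF2 SINC.

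EIF5A, the hypusine-bearing factor now known mainly for elongation and termination, has a relative EIF5A2 on chromosome 3 (72.1% identical bases) and a near copy EIF5AL1 on chromosome 10, which differs at 5 of 465 aligned bases (98.9% identical). Bases 74 to 133 of the aligned open reading frames are shown because 3 of those differences, in capitals, fall there.
EIF5A: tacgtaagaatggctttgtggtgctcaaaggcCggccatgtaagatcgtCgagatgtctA
EIF5AL1: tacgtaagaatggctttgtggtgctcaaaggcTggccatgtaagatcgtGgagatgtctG
EIF5A had 728, 1189 and 1060 CPM in the libraries labelled U2AF2 SI, against 1158, 1050 and 800 CPM in the libraries labelled U2AF2 SINC. Library 1 of U2AF2 SI and library 3 of U2AF2 SINC were its lowest, and the fold change was −0.01 ± 0.23. The EIF5AL1 row, at −0.21 ± 0.26, can hold reads of EIF5A and is uncertain. EIF5A2 was at 0.16 ± 0.31, EIF2A at −0.08, EIF2D at −0.09 and EIF1AD at −0.13, and all of these overlapped between the labels.

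The spread within each label followed a pattern that crossed the labels. Each member was expressed as the deviation of its log2 CPM from its mean over the 6 libraries. In library 1 of U2AF2 SI and library 3 of U2AF2 SINC 39 of 46 members deviated in the same direction, 19 above their mean and 20 below. Pearson's r of the deviations was 0.72 over the 46 members and 0.30 over all 11957 rows, given as a description of values that share these libraries and their scaling. The longest protein-coding transcripts of the 19 had at most 46.4% GC, the value of EIF4B. They included EIF1AX, EIF2A, EIF4E, EIF5 and EIF5A2. The 20 that were low in both included EIF3G, EIF5A and EIF6, and also EIF3F at 40.6% GC and EIF5AL1 at 45.6%. The GC ranges of the 19 and the 20 thus overlapped.

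Across the 46 members, r between the deviation and transcript GC content was −0.74, 0.23 and 0.52 in libraries 1, 2 and 3 of U2AF2 SI, against 0.52, 0.23 and −0.57 in libraries 1, 2 and 3 of U2AF2 SINC. These points share a library and differ in base composition and length. The 14 members under 42% GC had a median deviation of 0.34 in library 1 of U2AF2 SI and −0.30 in library 3 of U2AF2 SI, against −0.30 in library 1 of U2AF2 SINC and 0.20 in library 3 of U2AF2 SINC. The 6 members at or above 55% GC had medians of −0.35 in library 1 of U2AF2 SI and −0.19 in library 3 of U2AF2 SINC. The pair of libraries lay in different labels, so the pattern was part of the spread within both. What the pattern comes from was not tested.

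**Figure D3:**
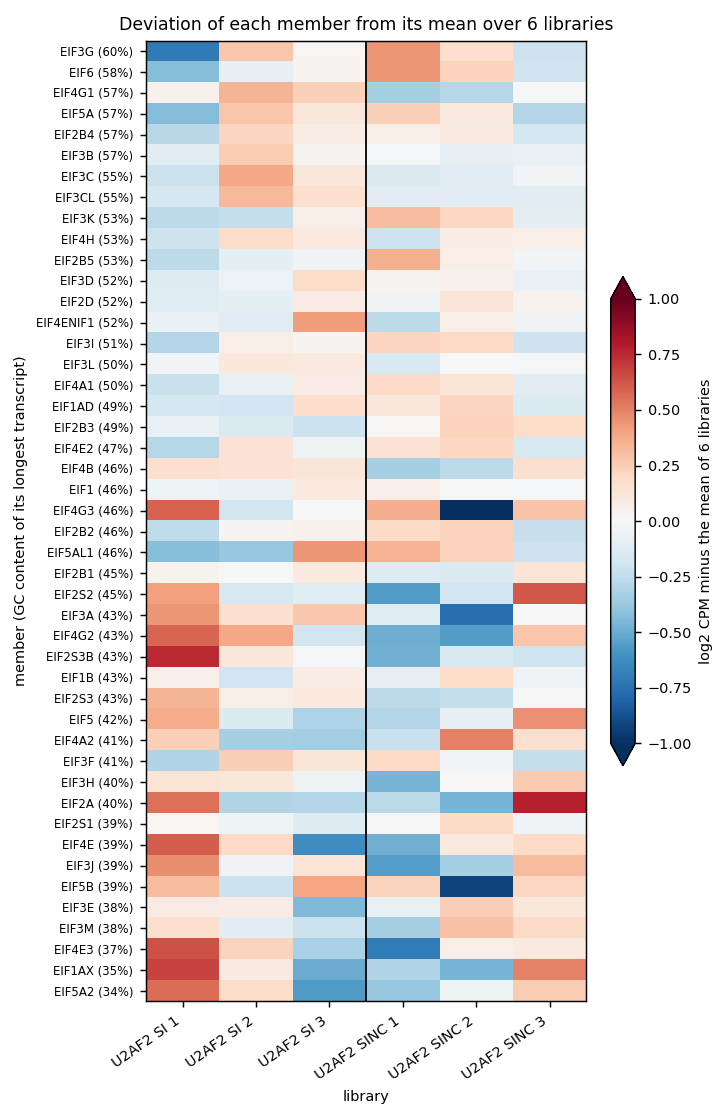
Deviation of log2 CPM from the mean of 6 libraries (colour, red above and blue below) for the 46 members (rows, ordered by transcript GC content from high at the top) in each library (columns, U2AF2 SI left of the black line). Library 1 of U2AF2 SI and library 3 of U2AF2 SINC are mostly blue in the upper rows and mostly red in the lower ones.

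Without both of these libraries, an alternative chosen after seeing the data, 5 members had an unadjusted edgeR p under 0.05, namely EIF3A, EIF3J, EIF4B, EIF4G1 and EIF4G2, against 12.8% of all rows, and 0 were called. Without library 3 of U2AF2 SINC alone there were 7, with EIF2S3 and EIF6 added, against 14.4% of all rows, and without library 2 of U2AF2 SINC there were 0, against 3.21%. The fold change also moved with transcript length. Length and GC content are those of the longest annotated transcript, which need not be the expressed one. The r of the fold change with log2 length was 0.52 over the 46 members and 0.40 over the 11327 rows with a length. With GC content it was −0.25 over the members and −0.10 over those rows. After removal of the trend in both, EIF1B, EIF2S3 and EIF2S3B were the members with an unadjusted p under 0.05, against 7.56% of all rows. Again 0 were called.

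**Figure D4:**
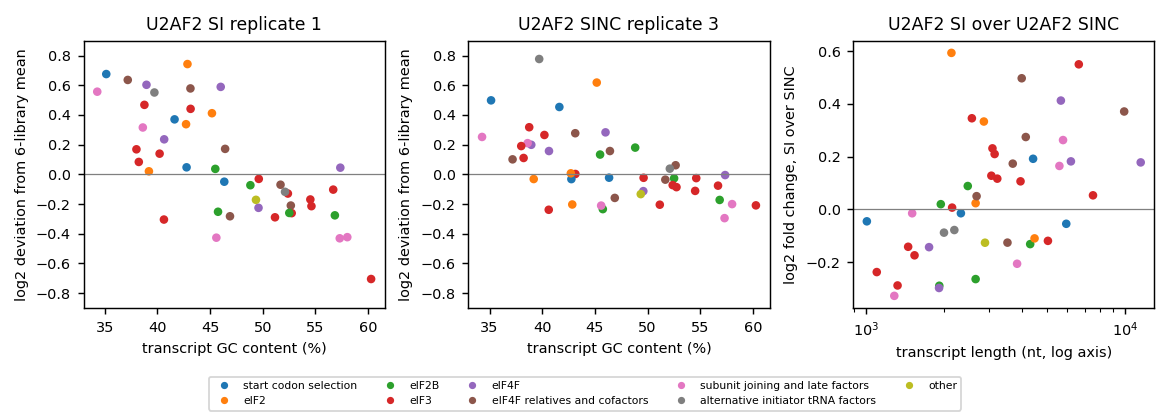
Each point is 1 of the 46 members, coloured by role. The left and middle panels plot the deviation from the mean of 6 libraries (log2) against transcript GC content (%) in library 1 of U2AF2 SI and library 3 of U2AF2 SINC, and the right panel plots the log2 fold change against transcript length (nt, log axis): deviations fall with GC content in both libraries, with r of −0.74 and −0.57, and long transcripts tend to have the higher fold changes, with r of 0.52.

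Several factors of initiation are themselves translated from terminal oligopyrimidine mRNAs, which begin with a C followed by a run of C or T and are known for translation that depends on mTOR and LARP1. RefSeq start sites on GRCh38.p14 were available for 39 members, with none for EIF2S2, EIF3A, EIF3CL, EIF3E, EIF3G, EIF3H and EIF3L. On the strand of the gene, 10 of the 39 (25.6%) had at least 1 start at which a C and then at least 4 bases of C or T formed a run from the first base, against 7.64% of the 9259 rows of the table with a start. They were EIF2A, EIF2D, EIF2S3, EIF2S3B, EIF3D, EIF3F, EIF3K, EIF3M, EIF4A2 and EIF4B. The windows below give 10 bases before the start and 20 from it, with the run in capitals, for 5 of these members, and for EIF4G1 as a member without a run.
EIF2S3 (chrX:24054946-24054975, plus strand): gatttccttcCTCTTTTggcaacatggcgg
EIF3D (chr22:36529147-36529176, minus strand): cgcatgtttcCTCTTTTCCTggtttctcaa
EIF3K (chr19:38619178-38619207, plus strand): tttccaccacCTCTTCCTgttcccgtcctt
EIF4A2 (chr3:186783567-186783596, plus strand): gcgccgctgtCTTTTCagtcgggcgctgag
EIF4B (chr12:53006446-53006475, plus strand): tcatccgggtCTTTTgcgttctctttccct
EIF4G1 (chr3:184314596-184314625, plus strand): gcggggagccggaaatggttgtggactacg
A run at an annotated start describes these letters and does not show where transcription began in OVCA433. The members with such a start lay on both sides of 0, with 5 above and 5 below, a median of −0.04 and a range from −0.30 (EIF4A2) to 0.59 (EIF2S3B). The 29 members without one had 15 above 0 and 14 below, with a median of 0.02. The 707 rows of the table with one had a median of 0.02.

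The genes that act on the initiation factors or follow them in translation were taken from 4 lists of 50 genes, all of which had a row. Of these 0 were called, 32 were above 0 and 18 below, and the median was 0.19, or 0.06 with the length and GC trend removed. At an unadjusted edgeR p under 0.05 there were 6 higher and 3 lower in the libraries labelled U2AF2 SI, against 3.15% and 4.22% of all rows, and 9 of the 50 did not overlap between the labels, against 13.0% of all rows. The list of 26 regulators of initiation had a median of 0.23, or 0.05 with the trend removed. The list of 11 helpers of scanning, reinitiation and recycling had 0.21, or 0.08. The elongation list of 10 genes had −0.04, or −0.01, and the 3 termination factors had 0.43, or 0.34. The list names are loose: that of elongation also held EEF2K, EEF1E1 and TPT1, which are not elongation factors, and that of helpers held the enzymes DHPS and DOHH.

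Among the regulators, PABPC4, a poly(A)-binding protein that contacts eIF4G, had 143, 164 and 137 CPM in the libraries labelled U2AF2 SI, against 77.2, 91.4 and 118 CPM in the libraries labelled U2AF2 SINC. EIF4EBP2, a repressor that holds eIF4E, had 76.2, 73.7 and 70.5 CPM in the libraries labelled U2AF2 SI, against 50.7, 51.6 and 53.1 CPM in the libraries labelled U2AF2 SINC. Neither overlapped, and the libraries of EIF4EBP2 were close within each label, but the fold changes of 0.63 ± 0.19 for PABPC4 and 0.50 ± 0.16 for EIF4EBP2 were not called (edgeR, Benjamini-Hochberg adjusted p = 0.653 for both). With the length and GC trend removed they were 0.55 for PABPC4 and 0.29 for EIF4EBP2. MCTS1, a partner in reinitiation, had 66.2, 60.5 and 67.4 CPM in the libraries labelled U2AF2 SI, against 94.7, 109 and 68.0 CPM in the libraries labelled U2AF2 SINC, a fold change of −0.49 ± 0.20 in which library 3 of U2AF2 SINC nearly met the other label, and −0.19 with the trend removed. The helicase DHX9 was at 0.45 ± 0.22, or 0.27 with the trend removed, and overlapped.

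EEF1B2, an exchange factor of elongation, had 618, 569 and 667 CPM in the libraries labelled U2AF2 SI, against 925, 1012 and 809 CPM in the libraries labelled U2AF2 SINC. The labels did not overlap, and the fold change was −0.57 ± 0.18 (edgeR, Benjamini-Hochberg adjusted p = 0.653). It was −0.28 with the length and GC trend removed. EEF1E1, a component of the tRNA synthetase complex, was at −0.44 ± 0.20, with all libraries labelled U2AF2 SI lower, and at −0.05 with the trend removed. GSPT1, the GTPase of termination, had 160, 165 and 143 CPM in the libraries labelled U2AF2 SI, against 98.2, 98.3 and 138 CPM in the libraries labelled U2AF2 SINC, without overlap and with a fold change of 0.48 ± 0.19 (edgeR, Benjamini-Hochberg adjusted p = 0.653). With the length and GC trend removed GSPT1 was at 0.34. Its relative GSPT2 was at 0.43 ± 0.29, or 0.35 with the trend removed, and overlapped.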

How the data were processed

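Per the labels' protocols, poly(A) RNA was made into strand-specific libraries by dUTP marking and PCR. The submitters' processing notes list CASAVA and StringTie. Not given in the sources used here are the aligner, the genome build, the annotation and whether counting used strand. The authors deposited whole-number counts per gene, used here as raw counts. Columns were tied to libraries by the sample descriptions alone (letter N for U2AF2 SI, letter S for U2AF2 SINC), and 0 columns were left without a sample. All rows had a mean of at least 31 counts. Libraries of a label differed by a chi-square of 56.0 to 170 per degree of freedom, more than counting noise in a resequenced library would give. This does not show whether they came from separate cultures or RNA preparations. Without molecular identifiers, PCR copies of a molecule cannot be told from separate molecules.

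Differences were fitted over all 11957 rows with edgeR 4.0.16 (R 4.3.3), with TMM factors (0.8745 to 1.164), filterByExpr (all rows kept), glmQLFit and glmQLFTest, with group as the only term, and adjusted by the Benjamini-Hochberg method at 0.05. The biological coefficient of variation was 27.0%. SE values came from the quasi-likelihood F statistic. The steps were first checked on simulated data. Alternatives were RLE, upper-quartile and library-size scaling, the largest row left out, a minimum mean of 5 CPM, no filter, a replicate block, each library left out, DESeq2 1.42.0, limma-voom (limma 3.58.1), and removal of a loess trend (span 0.3) with transcript length and then GC content from each library. Lengths, GC content and open reading frames were those of the longest protein-coding transcripts of GENCODE release 29 and were found for 94.7% of rows. The sequences at starts are from RefSeq. In that annotation 24 members share exon bases with a protein-coding or long non-coding gene on the opposite strand and 4 (EIF3L, EIF4A1, EIF4E3 and EIF6) with one on the same strand, small RNA genes and pseudogenes not counted, and their counts can include its reads.

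Values per library were given for the subunits of eIF2, eIF2B and eIF4F, for EIF1, EIF1AX, EIF5, EIF5B, EIF5A, EIF6, EIF3A, EIF3B and EIF3C, the 4 eIF3 rows and the 2 other rows with the smallest unadjusted p, and the 2 genes of each further list with the smallest. DHX9, EEF1E1 and GSPT2 are given by fold change. The members and lists were chosen with earlier results of these data known.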

Additional observations from a re-analysis of the deposited data

How the results depend on the processing

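No member was called under any setting tried. Direction changes of single members below are those larger than the SE. Scaling by library size alone moved the median of the members from 0.02 to 0.20, that of eIF2B to 0.061, of eIF3 to 0.26 and of eIF4F to 0.37. It turned EIF1 to 0.17, EIF1AD to 0.059, EIF1B to 0.14, EIF2B2 to 0.061, EIF2D to 0.090, EIF2S1 to 0.083, EIF3E to 0.023 and EIF4E2 to 0.065. Removing the length and GC trend gave an eIF4F median of −0.060 and turned EIF1B to 0.30, EIF3E to 0.036 and EIF3G to 0.093. Leaving out 1 library gave medians of −0.10 to 0.31 for eIF4F, 0.0345 to 0.43 for eIF2 and −0.27 to −0.048 for eIF2B. It gave −0.17 to 0.55 for EIF1AX and −0.14 to 0.45 for EIF4E, which turned without library 1 of U2AF2 SI, and −0.43 to 0.42 for EIF2A and −0.29 to 0.19 for EIF5, which turned without library 3 of U2AF2 SINC. Without library 1 of U2AF2 SI and library 3 of U2AF2 SINC the eIF4F median was −0.00299. The cause of these shifts was not tested.

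Over the whole table the count of called rows, 1 in edgeR, was 0 with upper-quartile scaling, library size alone, a mean of at least 5 CPM, the trend removed, or both libraries left out, 0 to 2 with 1 library left out, 61 in DESeq2 (1062 rows with an adjusted p, 23 of them members) and 4 in DESeq2 without independent filtering, which was added after seeing the data, as were the summed copies and the omission of both libraries. Rows with an unadjusted p under 0.05 were 384 to 1721 with 1 library left out and 1536 with both, against 881, and members 0 to 7 and 5, against 2, with 4 under library size alone and 1 under RLE scaling.

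The replicate numbers were not taken as pairs. Here the deviations were over all rows and from the mean of a library's own label, not from the mean over 6 libraries. Their correlations between same-numbered libraries were −0.09 for number 1, 0.25 for number 2 and −0.31 for number 3. Of these pairs only number 2 held libraries that correlated best with each other. The replicate block gave 2 called rows, 548 rows and 1 member (EIF3A) with an unadjusted p under 0.05. With the replicate block and the trend removed, 0 rows were called, the eIF4F median was 0.016, and EIF1B was 0.30, EIF3E 0.033 and EIF3G 0.093.

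Rows under a mean of 31 counts were not analysed here, near-identical copies cannot be separated by these counts, and 3 libraries a label with a biological coefficient of variation of 27.0% limit the precision.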

Other observations

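Of the 50 other translation genes, those with an unadjusted edgeR p under 0.05 that are not described above were PABPC1, PPP1R15B, GCN1 and EIF4EBP3, named here after their values were seen. PABPC1, the main cytoplasmic poly(A)-binding protein, had 516, 530 and 383 CPM in the libraries labelled U2AF2 SI, against 237, 243 and 408 CPM in the libraries labelled U2AF2 SINC. Its labels overlapped through library 3 of each, with a fold change of 0.69 ± 0.24 (edgeR, Benjamini-Hochberg adjusted p = 0.653), or 0.56 with the length and GC trend removed. GCN1, which activates the eIF2 kinase encoded by EIF2AK4, had 299, 325 and 322 CPM in the libraries labelled U2AF2 SI, against 221, 243 and 260 CPM in the libraries labelled U2AF2 SINC, without overlap and with a fold change of 0.39 ± 0.17 (0.22 with the length and GC trend removed). PPP1R15B, which directs a phosphatase to eIF2, had 94.0, 52.8 and 53.9 CPM in the libraries labelled U2AF2 SI, against 41.0, 38.5 and 53.8 CPM in the libraries labelled U2AF2 SINC, and library 1 of U2AF2 SI stood apart from the rest. Its fold change was 0.59 ± 0.25, or 0.35 with the trend removed.

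The repressors of eIF4E lay on different sides of 0. EIF4EBP1 had 116, 195 and 182 CPM in the libraries labelled U2AF2 SI, against 263, 205 and 163 CPM in the libraries labelled U2AF2 SINC, with overlap and a fold change of −0.36 ± 0.24 that was 0.02 with the length and GC trend removed. EIF4EBP3 was counted at 1.91, 1.86 and 2.63 CPM in the libraries labelled U2AF2 SI, against 4.62, 4.82 and 2.67 CPM in the libraries labelled U2AF2 SINC, with a fold change of −0.92 ± 0.37 that was −0.34 with the trend removed. The ratio of EIF4EBP2 to EIF4EBP1 counts was 0.658, 0.378 and 0.387 in the libraries labelled U2AF2 SI, against 0.193, 0.251 and 0.325 in the libraries labelled U2AF2 SINC, a description without a test. The eIF2 kinases EIF2AK1, EIF2AK2, EIF2AK3 and EIF2AK4 had fold changes of 0.33, 0.31, −0.01 and 0.25, and all of them overlapped between the labels.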
